A study of Rattus norvegicus with 6 samples.

Results

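The subfields of the hippocampus can be told apart by genes whose transcripts are concentrated in the neurons of a single field, and 10 such marker genes were examined in rat hippocampus after single prolonged stress (SPS). They were picked by gene symbol from the 22062 genes of the deposited expression table, and each symbol matched 1 row. Prox1, Dsp, C1ql2 and Calb1 mark the dentate gyrus, Wfs1, Fibcd1, Rgs14, Pcp4 and Neurod6 mark the CA fields, and Bcl11b marks granule cells and CA1 alike. RNA sequencing covered hippocampus of Sprague Dawley rats, with 3 libraries from stressed animals and 3 from untreated animals that stayed in their home cages. SPS, a rodent procedure used to model post-traumatic stress, consisted of 2 hours of immobilisation, a 20-minute forced swim at 24 °C, a 15-minute rest and anaesthesia to loss of consciousness. The labels give no genotype, age, sex, tissue side or interval between stress and dissection, and they do not say whether a library is 1 animal, so a p-value here reflects no more than how far these libraries spread.

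The dentate gyrus is the entry station of the hippocampal circuit. Its granule cells send mossy fibres to the pyramidal cells of CA3, which project to CA1, while CA2 is a small field between them. Granule cells continue to be born in adult rodents, and each field keeps a distinct set of transcription factors, calcium buffers and synaptic proteins. Because the fields lie side by side in a folded sheet, bulk tissue holds all of them. In such tissue fewer cells of a type and less RNA per cell cannot be told apart.

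Depth, recovered as whole reads, ranged from 4081184 to 11838770 per library, and 9 of the 10 markers were among the 12441 genes that passed the expression filter of the test. The libraries numbered 2 stood apart in both groups. The summed level of 6 choroid plexus genes was 32699 CPM (normalised reads, scaled to a library of 1000000) in SPS replicate 2 and between 24.7 and 132 in the other libraries. That of 6 meningeal and mural genes was 5117 in Control replicate 2, 2536 in SPS replicate 2 and at most 335 elsewhere. The summed level of 6 neuronal genes was lowest in SPS replicate 2, at 3414, and ranged from 5228 to 7403 in the rest. Results that rest on these libraries are given with and without them, and their part in the results was not tested.

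None of the 9 tested field markers differed between SPS and Control by the test over all genes, and Fibcd1 had too few reads to enter it. The markers did differ strongly between individual libraries. Prox1 covered a 76.9-fold range, and its lowest level lay in Control replicate 2. In the plot of all levels the symbols of a replicate number often lie together across the groups.

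**Figure D1:**
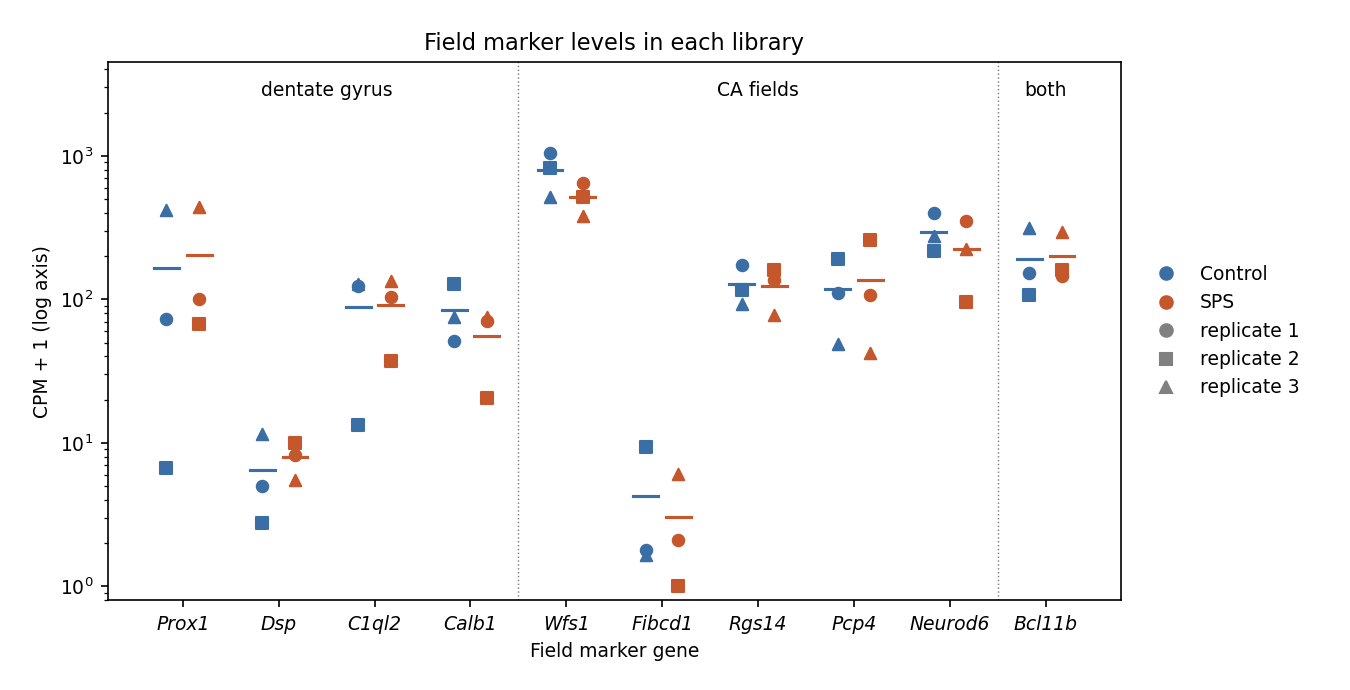
Level of each field marker in each library, as CPM + 1 on a log axis. Colours give the group, symbol shapes the replicate number, and short bars the group mean of 3 libraries. Control replicate 2 has the lowest Prox1, at 5.68 CPM, and the lowest C1ql2, at 12.4 CPM.

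Compared per transcript length, in the authors' FPKM, Pcp4 had the highest median level over the 6 libraries, at 272 FPKM. Wfs1 followed at 161, Neurod6 at 124 and C1ql2 at 85.0 FPKM. Rgs14 was at 43.8, Calb1 at 41.2, Bcl11b at 30.8 and Prox1 at 11.1 FPKM. Dsp and Fibcd1 were lowest, at 0.558 and 0.188 FPKM. The ranges of all neighbours in this order overlapped. Within every library, however, Neurod6 lay above C1ql2 and Prox1 above Dsp. The order of the other adjacent genes reversed in some libraries and is not resolved.

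Prox1 encodes a homeobox transcription factor that sets and keeps granule cell identity (ENSRNOG00000003694, chromosome 13, 108382398 to 108443294 as the table gives it, with no build stated). Its level was 72.3, 5.68 and 419 CPM in Control and 100.3, 66.4 and 437 CPM in SPS, here and below in the order of replicates 1, 2 and 3. Both libraries numbered 3 were high, those numbered 1 were lower, and Control replicate 2 was by itself at the bottom, so that the groups overlapped. The 32 reads in Control replicate 2 give a 95% exact Poisson interval of 3.88 to 8.02 CPM, which covers counting error only. The standard deviation of Prox1 across the 6 libraries, 2.21 on the log2 scale, was larger than that of 99.6% of the genes tested.

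C1ql2 encodes a secreted C1q-like protein that granule cells place at mossy fibre synapses in mouse (ENSRNOG00000046863, chromosome 13, 36378355 to 36380302). It was at 122, 12.4 and 127 CPM in Control and at 104, 36.1 and 133 CPM in SPS. Both libraries numbered 2 were low, and the other 4 lay close together. The low levels of Prox1 and C1ql2 in Control replicate 2 thus coincided, whereas in the libraries numbered 3 C1ql2 was close to its level in those numbered 1 and Prox1 was far above. The CPM ratio of Prox1 to C1ql2 was 3.30 and 3.28 in Control and SPS replicate 3, against 0.457 to 1.84 in the other libraries.

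Calb1, the calcium buffer calbindin of granule cells, is also made by CA1 pyramidal cells and some interneurons (ENSRNOG00000007456, chromosome 5, 29538379 to 29562773). It was at 50.3, 126 and 74.8 CPM in Control and at 69.1, 19.7 and 74.2 CPM in SPS. Its highest level lay in Control replicate 2, where Prox1 and C1ql2 were lowest, and its lowest in SPS replicate 2. Dsp, the desmosomal plaque protein desmoplakin (ENSRNOG00000013928, chromosome 17, 27286795 to 27334379), had 248 reads in all 6 libraries together. It was at 4.03, 1.77 and 10.6 CPM in Control and at 7.26, 9.03 and 4.49 CPM in SPS, again with the lowest value in Control replicate 2. The groups overlapped for both genes.

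Among the CA markers, Wfs1 and Neurod6 are shown with the 250 bases before their transcription start, because both were lower in SPS in all 3 same-numbered pairs. Capitals mark E-boxes, the motif CANNTG that bHLH factors such as NEUROD6 bind, which reads the same on both strands. The sequences are from RefSeq on build GRCr8, chr14:78034955-78035204 on the plus strand for Wfs1 and chr4:86180156-86180405 on the minus strand for Neurod6.
Wfs1: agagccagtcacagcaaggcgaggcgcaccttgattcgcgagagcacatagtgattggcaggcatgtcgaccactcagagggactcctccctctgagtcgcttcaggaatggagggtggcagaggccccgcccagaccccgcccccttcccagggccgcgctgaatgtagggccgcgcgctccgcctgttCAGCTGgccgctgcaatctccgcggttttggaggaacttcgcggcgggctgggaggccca
Neurod6: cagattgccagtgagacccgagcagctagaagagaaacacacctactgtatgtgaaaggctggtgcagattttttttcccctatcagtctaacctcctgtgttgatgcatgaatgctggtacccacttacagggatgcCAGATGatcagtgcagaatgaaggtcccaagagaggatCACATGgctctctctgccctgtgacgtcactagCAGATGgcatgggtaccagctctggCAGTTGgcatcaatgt
The Wfs1 window held 1 E-box and the Neurod6 window 4. Of all 33469 RefSeq windows of this length, 65.5% held at least 1, 3.20% at least 4 and 0.923% at least 5. A promoter entry was matched for 7 of the 10 markers, and 5 of these held an E-box. The window with the most was that of Rgs14, with 6, while Dsp and Pcp4 had 1 each. A match describes the letters and shows no binding.

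Wfs1 encodes wolframin, a membrane protein of the endoplasmic reticulum that marks CA1 pyramidal cells in mouse (ENSRNOG00000005108, chromosome 14, 78640619 to 78665966). It was the most abundant marker in CPM, at 1043, 820 and 517 CPM in Control and at 645, 512 and 378 CPM in SPS. Each SPS library lay below the Control library of its number, at ratios of 0.619, 0.624 and 0.732, although SPS replicate 1 exceeded Control replicate 3. Neurod6, a bHLH transcription factor of pyramidal neurons in hippocampus and cortex (ENSRNOG00000026055, chromosome 4, 85911860 to 85915099), was at 398, 215 and 275 CPM in Control. In SPS it was at 352, 95.6 and 223 CPM, with SPS replicate 2 lowest. The pair ratios of Neurod6 were 0.885, 0.446 and 0.811.

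Rgs14 and Pcp4 mark CA2 in mouse. Rgs14, a G protein regulator that restrains synaptic plasticity in mouse CA2 (ENSRNOG00000015616, chromosome 17, 9777841 to 9792007), was at 171, 116 and 92.2 CPM in Control and at 135, 158 and 76.3 CPM in SPS. Its highest level was 2.24 times its lowest, the narrowest range among the 10 markers. Pcp4, a small calmodulin-binding protein also made outside CA2 (ENSRNOG00000001628, chromosome 11, 36851037 to 36912229), was at 110.5, 191 and 47.8 CPM in Control. In SPS it was at 107, 258 and 41.3 CPM. Its levels followed the replicate number in the same order in both groups, with number 2 highest and number 3 lowest.

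Fibcd1, a transmembrane fibrinogen-domain receptor and CA1 marker in mouse (ENSRNOG00000009735, chromosome 3, 9998494 to 10032205), had 99 reads in all and was not tested. It had 9, 47 and 3 reads in Control and 12, 0 and 28 in SPS. The 0 reads in SPS replicate 2 allow a level of up to 0.694 CPM, taking 3 reads as the limit. Bcl11b, a zinc-finger transcription factor also called CTIP2 (ENSRNOG00000005776, chromosome 6, 131834096 to 131926272), was at 151, 105 and 315 CPM in Control and at 144, 160 and 294 CPM in SPS. Both libraries numbered 3 were high, as for Prox1, but the range was 2.99-fold.

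SPS was compared with Control with the quasi-likelihood test of edgeR, adjusting p by Benjamini-Hochberg over all 12441 genes tested. The log2 fold change, SPS over Control, was positive for 5 of the 9 tested markers, as for 47.9% of all genes tested, and negative for 4, with a median of 0.06, against −0.02 over all genes tested. By adjusted p under 0.05 the test called 0 of the 9 markers and 0 of 12441 genes (0.0%). At an unadjusted p under 0.05 it had 0 of the markers and 42 genes in all (0.338%). DESeq2 also called 0 genes, with 84 at an unadjusted p under 0.05 and 0 markers among them. The groups overlapped for all 10 markers, where 2.94% of tested genes had groups that did not overlap.

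Wfs1 had the smallest p of the markers, at −0.63 ± 0.38 on the log2 scale (SE, unadjusted p = 0.141, adjusted p = 1.00 in edgeR). The Control mean was 793 ± 264 CPM and the SPS mean 512 ± 133 CPM (SD, n = 3). Calb1 followed at −0.62 ± 0.57 (unadjusted p = 0.311 in edgeR), with means of 83.8 ± 38.7 and 54.3 ± 30.1 CPM, and Neurod6 at −0.40 ± 0.51 (unadjusted p = 0.453 in edgeR), with means of 296 ± 93.3 and 223 ± 128 CPM. The value of Calb1 rests on the libraries numbered 2: without both it was 0.18, while that of Wfs1 was again −0.63 and that of Neurod6 −0.24. Single libraries moved the others too. Neurod6 went to −0.04 without SPS replicate 2, to −0.12 without Control replicate 1 and to −0.90 without SPS replicate 1. Wfs1 went to −0.38 without Control replicate 1 and stood at −0.87 without Control replicate 3. Prox1 had a log2 fold change of 0.28 ± 1.28 (unadjusted p = 0.832 in edgeR), with means of 166 ± 222 and 201 ± 205 CPM. It went to 2.33 without Control replicate 3, to −0.998 without SPS replicate 3 and to −0.30 without Control replicate 2. Dsp (0.35), Pcp4 (0.22), Bcl11b (0.07), C1ql2 (0.06) and Rgs14 (−0.04) had standard errors larger than their log2 fold changes.

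Libraries of the same replicate number had positively correlated residuals, which the labels do not explain, so the markers were also compared by same-numbered pair. Wfs1 and Neurod6 were lower in SPS in all 3 pairs, as were 13.2% of the genes tested, and Prox1 was higher in all 3, as were 11.6%. For most markers the largest difference lay in the pair numbered 2. There Prox1 was 11.7 times, Dsp 5.09 times and C1ql2 2.91 times as high in SPS as in Control, and Calb1 stood at a ratio of 0.156. In the pairs numbered 1 and 3 the ratios of Prox1 were 1.39 and 1.04, those of C1ql2 0.848 and 1.05, and those of Calb1 1.37 and 0.992. Dsp stood at 1.802 in pair 1 and 0.425 in pair 3, against its direction in pair 2. Fibcd1, with few reads, stood at 1.38 in pair 1 and 7.62 in pair 3 and had no read in SPS replicate 2. Bcl11b stood at 0.952, 1.52 and 0.932 and Pcp4 at 0.966, 1.35 and 0.865 in pairs 1, 2 and 3.

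Oligodendrocyte genes lay higher in SPS beside the lower Wfs1 and Neurod6. All 7 genes of that list had positive log2 fold changes, as had 47.9% of all genes tested, with a median of 0.92. All 7 were higher in all 3 pairs, as were 11.6% of all genes tested, and 0 were called. Their summed level was 12670, 8205 and 9338 CPM in Control and 15030, 29468 and 12167 CPM in SPS, highest in SPS replicate 2. Control replicate 1 lay above SPS replicate 3, so the sums of the groups overlapped. Without both libraries numbered 2, a setting chosen after seeing the data, all 7 were again positive, with a median of 0.40. Their part in the marker levels was not tested.

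**Figure D2:**
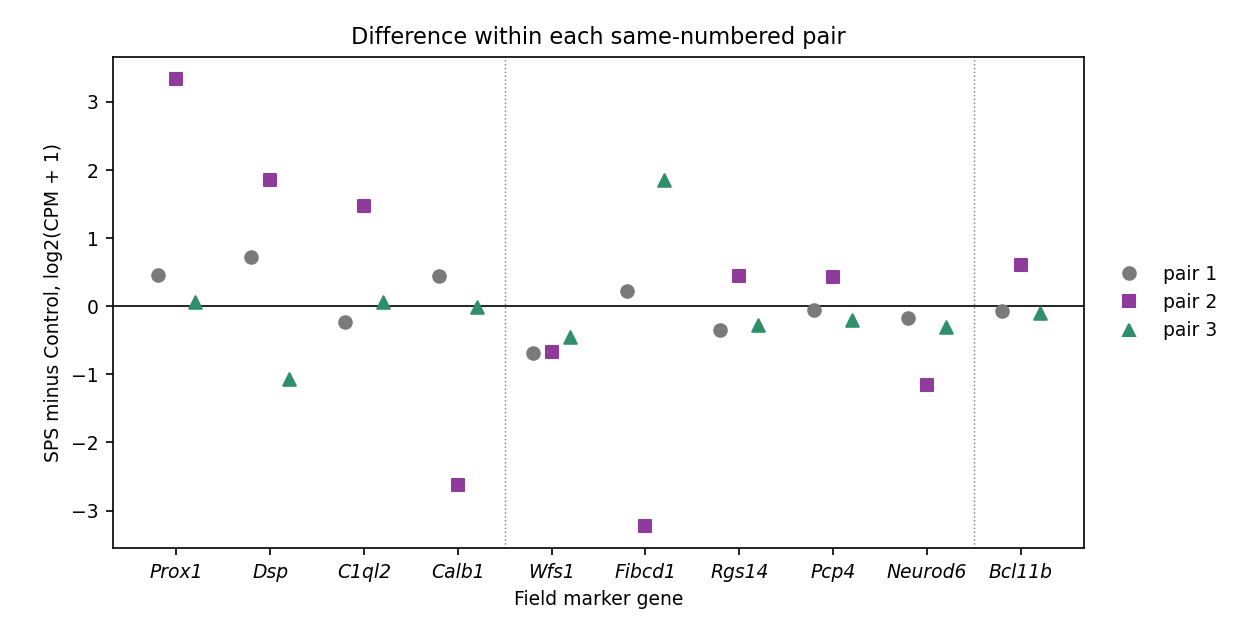
Difference between SPS and Control within each same-numbered pair, on the log2(CPM + 1) scale, for each field marker. Prox1 reaches 3.34 and Calb1 −2.62 in pair 2, while the 3 pairs of Wfs1 lie between −0.69 and −0.45.

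With the replicate number as a block, edgeR called 0 of 12441 genes (0.0%), and 1.38% of genes had an unadjusted p under 0.05. Of the markers 1 was among these, Wfs1, at −0.61 ± 0.15 on the log2 scale (SE, unadjusted p = 0.00745, adjusted p = 0.967). The blocked value of Neurod6 was −0.54 ± 0.24 (unadjusted p = 0.0698 in edgeR). That of Prox1 was 1.15 ± 0.68 (unadjusted p = 0.144 in edgeR), and it fell to 0.24 ± 0.18 without both libraries numbered 2. Wfs1 stood at −0.59 ± 0.15 without them (unadjusted p = 0.00211, adjusted p = 1.00 in edgeR). That setting was chosen after seeing the data and leaves fewer libraries. In it 399 of 13057 genes had an unadjusted p under 0.05, against 172 of 12441 in the block over all libraries. The smaller p of Wfs1 is therefore no added support. The blocked value of C1ql2 was 0.40 ± 0.37 and that of Dsp 0.65 ± 0.92. Without both libraries numbered 2 the blocked value was −0.11 ± 0.20 for C1ql2 and −0.16 ± 0.58 for Dsp, both reversed. That of Neurod6 was then −0.26 ± 0.17.

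The balance of dentate against CA markers was taken per library as the mean log2(CPM + 1) of the 4 dentate markers minus that of the 5 CA markers. It was −1.46, −3.28 and 0.37 in Control and −0.90, −1.44 and 0.00 in SPS. Control replicate 2 was lowest and both libraries numbered 3 were highest, so the groups overlapped. The mean was −1.46 ± 1.83 in Control and −0.78 ± 0.73 in SPS (SD, n = 3), a difference of 0.68 that was smaller than the spread within Control. No p is given, because the markers were chosen with results of these data known. The SPS minus Control difference of the balance was 0.56, 1.84 and −0.37 within pairs 1, 2 and 3. The difference of the means was −0.24 without Control replicate 2 and 1.59 without Control replicate 3. Leaving out both libraries numbered 2 gave 0.09. The choice of markers mattered too. Without Calb1, Pcp4 and Rgs14 the difference was 1.25, with 0.53, 3.91 and −0.69 within pairs 1, 2 and 3. Without Prox1 it was 0.37.

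**Figure D3:**
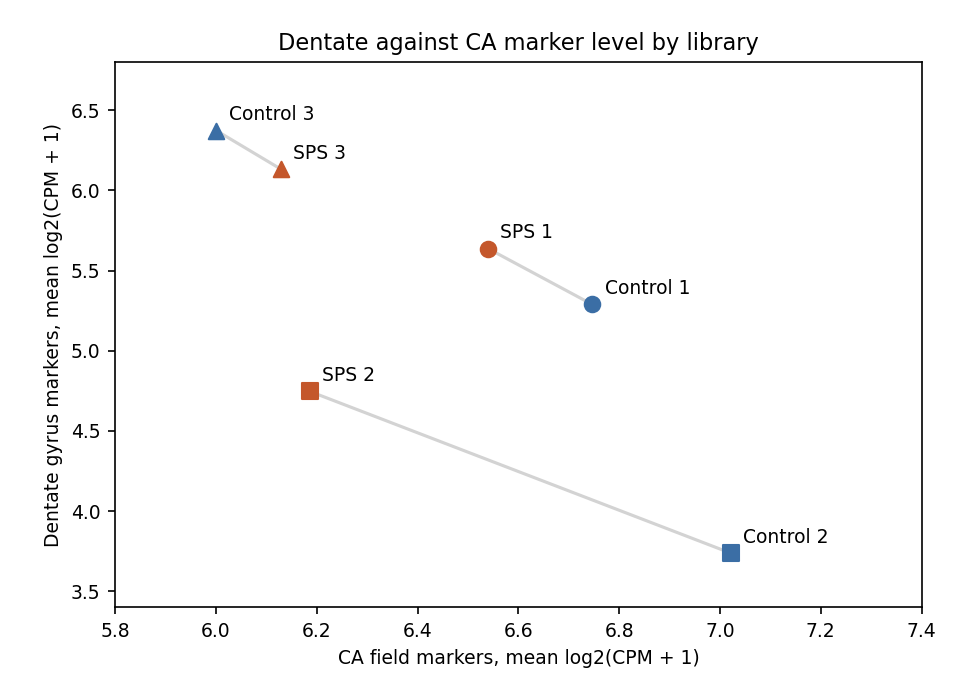
Mean log2(CPM + 1) of the 4 dentate gyrus markers against that of the 5 CA field markers in each library, with grey lines joining same-numbered libraries. Control replicate 2 combines the lowest dentate level, 3.74, with the highest CA level, 7.02. That CA level rests on Fibcd1: over the 4 tested CA markers Control replicate 1 is highest, at 0.53 above the 6-library mean against 0.28 for Control replicate 2.

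Other genes of the same fields, from lists that hold none of the 10 markers, were examined in the same way. Of the 10 other dentate granule cell genes 7 were tested, 5 with a positive log2 fold change, and the median was 0.30. None passed the test. Dock10, a guanine nucleotide exchange factor, was at 108, 45.6 and 270 CPM in Control and at 162, 91.4 and 268 in SPS. Stxbp6, a SNARE-binding protein, was at 19.3, 8.87 and 110.5 CPM in Control and at 31.8, 19.7 and 101.3 in SPS. Both were lowest in Control replicate 2 and high in both libraries numbered 3, as Prox1 was. Cdh9, a cadherin, was at 51.5, 12.6 and 117 CPM in Control and at 58.8, 5.79 and 91.2 in SPS. Trpc6, a cation channel, was at 31.7, 22.9 and 38.7 CPM in Control and at 31.8, 4.398 and 47.8 in SPS. These 2 genes were instead lowest in SPS replicate 2. The mean level of the 7 genes relative to the 6-library mean was −1.22 in Control replicate 2 and −0.37 in SPS replicate 2 on the log2 scale, and between 0.06 and 0.64 in the other 4 libraries.

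Of the other CA1 genes 4 were tested, 1 of them with a positive log2 fold change, and the median was −0.53. None passed the test. Mpped1, a metallophosphoesterase-domain protein, was at 337, 417 and 245 CPM in Control and at 294, 192 and 225 CPM in SPS, lower in all 3 pairs. Nov, a secreted CCN family protein, was at 220, 421 and 123 CPM in Control and at 236, 100.47 and 176 in SPS. Both genes were highest in Control replicate 2 and lowest in SPS replicate 2. Ndst4, a heparan sulfate-modifying enzyme, ran the other way, at 6.48, 7.45 and 31.5 CPM in Control and at 16.8, 13.0 and 32.0 in SPS, higher in all 3 pairs.

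The 6 tested CA2 genes outside the marker set had a median log2 fold change of 0.59, 4 of them positive, and the 6 tested CA3 genes a median of 0.29, 4 of them positive. None passed the test in either list. Necab2, a calcium-binding protein of CA2, was at 265, 129 and 153 CPM in Control and at 221, 116 and 146 in SPS, with a log2 fold change of −0.18. Amigo2 was at 20.9, 5.86 and 16.3 CPM in Control and at 21.5, 14.6 and 25.5 in SPS. Ntf3 was at 17.1, 2.66 and 7.92 CPM in Control and at 13.2, 25.7 and 5.21 in SPS. Both Amigo2 (0.51) and Ntf3 (0.66) had positive log2 fold changes and were lowest in Control replicate 2. Grik4, a kainate receptor subunit of CA3 pyramidal cells, was at 91.1, 14.7 and 109 CPM in Control and at 102, 49.8 and 123 in SPS. Like Prox1 and C1ql2, it was lowest in Control replicate 2. The next 3 CA3 genes by level did not share this. Bok, a BCL2 family protein, was at 107, 97.1 and 43.1 CPM in Control and at 64.4, 95.1 and 44.2 in SPS. Coch, the extracellular protein cochlin, was highest in Control replicate 2, and Nectin3, an adhesion protein, was lowest in SPS replicate 2, at 3.47 CPM. Sostdc1, a secreted antagonist listed for CA2 but also made by choroid plexus, was at 318 CPM in SPS replicate 2 and at most 5.06 elsewhere, and was not tested.

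**Figure D4:**
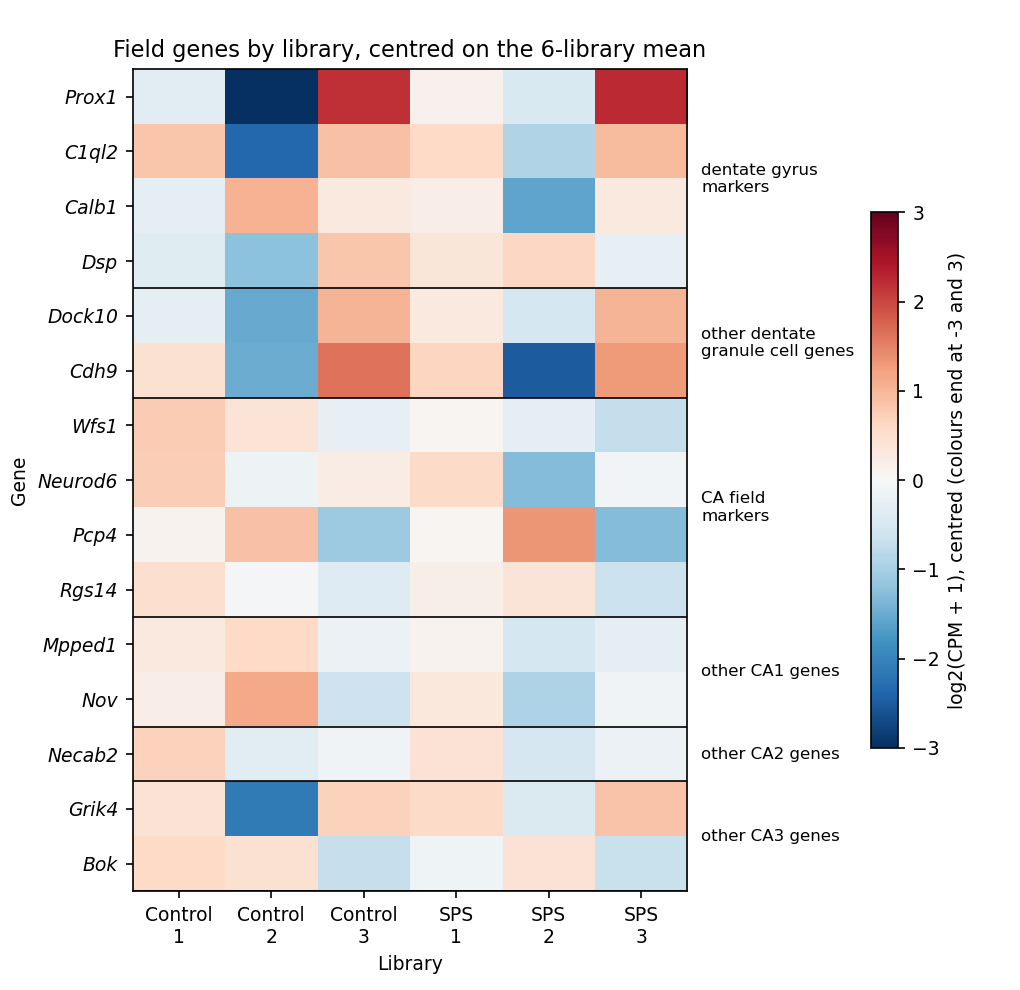
Level of each tested dentate or CA marker and of up to 2 other genes per field in each library, as log2(CPM + 1) centred on the mean of the 6 libraries. Control replicate 2 is at −3.79 for Prox1 and −2.37 for C1ql2, and both libraries numbered 3 are above 2 for Prox1.

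Genes of immature granule cells, which mark ongoing neurogenesis, gave no called gene among the 6 tested, with a median log2 fold change of 0.13. Dcx, the microtubule protein doublecortin of newborn neurons, was at 25.6, 27.5 and 86.9 CPM in Control and at 39.1, 22.9 and 103 CPM in SPS. Neurod1, a bHLH factor of the granule lineage, was at 28.3, 11.4 and 48.2 CPM in Control and at 31.5, 11.1 and 46.5 in SPS. The groups overlapped for Dcx and Neurod1. Tubb3, the most abundant gene of the list, was at 436, 459 and 393 CPM in Control and at 385, 149 and 384 in SPS. Every SPS library lay below every Control library, as in 2.94% of tested genes in either direction. Its log2 fold change was −0.49 (unadjusted p = 0.279 in edgeR), with the largest difference in pair 2. It was the 1 negative gene of the list, against 5 positive. Mossy cell genes had 4 tested, 0 called and a median of 0.13. The 6 tested neuronal genes all had negative log2 fold changes, with a median of −0.16 and 0 called. The differences of the group means of log2(CPM + 1), which weight the libraries otherwise than edgeR does, were −0.61 for Wfs1, −0.54 for Neurod6 and 1.29 for Prox1. Expressed relative to the summed level of these 6 genes, which adds 0.23 to every gene, they became −0.37, −0.31 and 1.52. That summed level was 6799, 5228 and 7403 CPM in Control and 6921, 3414 and 6880 CPM in SPS. The added 0.23 thus rests mainly on pair 2, and no value without the libraries numbered 2 is given.

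As a raw share, replicate number accounted for more of the variation than group for most markers, as for the median tested gene, but not for Calb1 or Dsp. The number has more levels than the group, so it takes a larger share on average even where neither has an effect. The shares are not adjusted for this and do not rank number above group. On the log2(CPM + 1) scale the replicate number accounted for 97.8% of the sum of squares of Pcp4, 90.2% of Bcl11b, 87.9% of C1ql2, 80.6% of Rgs14, 76.8% of Prox1, 72.3% of Neurod6 and 58.6% of Wfs1, against a median of 73.9% over all tested genes. For Dsp, Fibcd1 and Calb1 it accounted for 12.2%, 8.31% and 8.19%. The group accounted for 40.1% of Wfs1, 20.6% of Calb1 and at most 16.8% of each of the others, against a median of 5.76% over all tested genes. These shares describe 6 libraries and carry no test.

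The difference between replicate 3 and replicate 1 moved with transcript length in both groups. The tested genes were divided into 5 groups of equal size by effective transcript length, which is proportional to count over FPKM. From the shortest to the longest group, the median difference between replicate 3 and replicate 1 rose from −0.80 to 0.72 on the log2 scale in Control and from −0.55 to 0.53 in SPS. Between replicate 2 and replicate 1 it did not rise. It went from 0.20 to −0.05 in Control and from 0.37 to −0.44 in SPS. Prox1, Dsp and Bcl11b belong to the longest group and Pcp4 and C1ql2 to the shortest. Prox1 was higher in replicate 3 by 2.52 in Control and 2.11 in SPS, which was 1.798 and 1.59 above the median of its length group. Pcp4 differed by −1.19 and −1.35, which was −0.40 and −0.80 from its group's median. The part of transcript length in the marker levels was not tested further.

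Set against the median of genes of like length, the markers of the fields lay mostly on opposite sides in replicate 3, some of them within the quartiles. Wfs1 was −1.19 and Rgs14 −1.07 from the median of their length group in Control, and −0.91 and −0.96 in SPS. Neurod6 was −0.17 and −0.43 from its group's median in Control and SPS. C1ql2 was 0.85 and 0.90 above its group's median and Calb1 0.93 and 0.33 above. Bcl11b was 0.34 and 0.50 above. The exception among the dentate markers was Dsp, at 0.48 in Control and −1.11 in SPS. Neurod6 in both groups, Pcp4, Dsp and Bcl11b in Control and Calb1 in SPS lay within the quartiles of their length group. These positions were examined after the values were seen and are a description of 4 libraries.

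**Figure D5:**
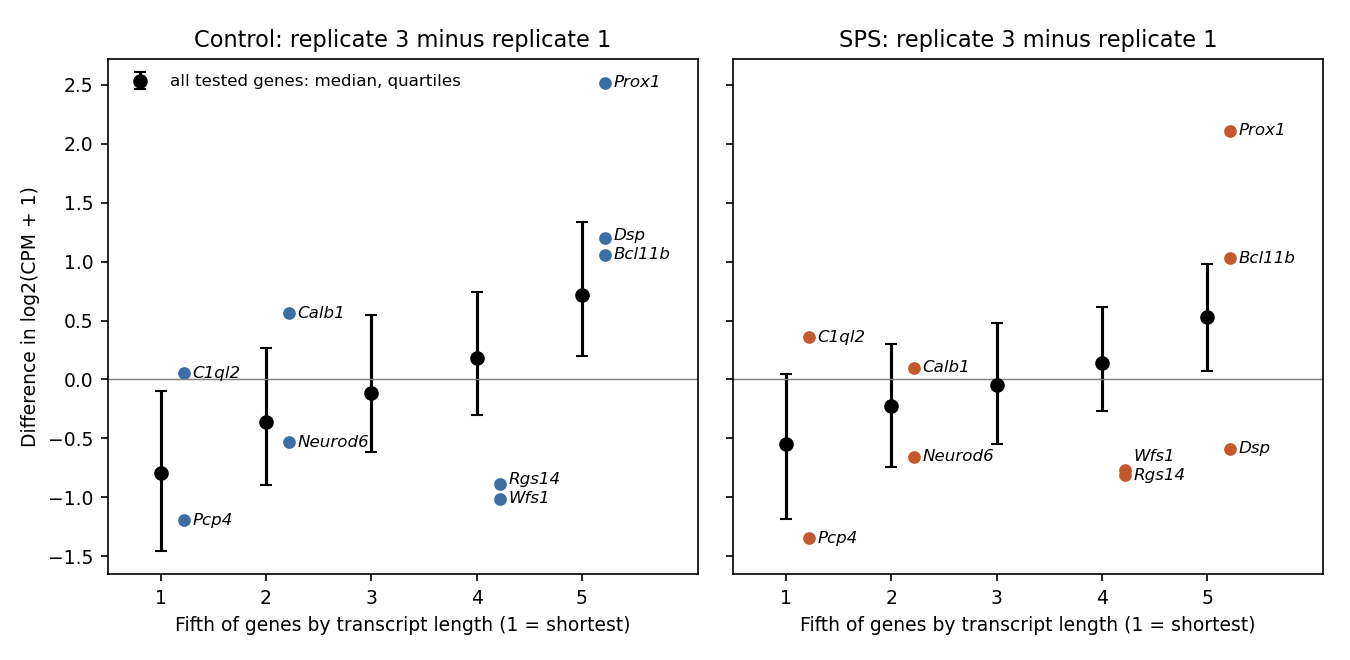
Difference between replicate 3 and replicate 1 in log2(CPM + 1), for Control on the left and SPS on the right, against the length group of the gene. Black points are medians of all tested genes with quartiles as bars, rising from −0.80 to 0.72 in Control, and coloured points are the field markers, with Prox1 at 2.52 and Wfs1 at −1.01 in Control.

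Likeness was measured as the root mean square difference in centred log2(CPM + 1) over the 6 libraries, among genes with a mean of at least 5 CPM. Values were not scaled by spread, so the size of the differences between libraries counts as well as their order. The standard deviation over the 6 libraries was 2.21 for Prox1 and 0.73 for Neurod6, so their distances and ranks are not on the same footing. The genes most like Prox1 were Tab3 (0.54), Ccser1 (0.57), Rasgrf2 (0.59), Piezo2 (0.62) and Wnk3 (0.66). Rasgrf2 was at 27.1, 4.44 and 133 CPM in Control and at 38.9, 13.0 and 140 CPM in SPS. Those most like Neurod6 were closer, at 0.08 for Tmem25, 0.09 for Pwwp2b, 0.10 for Cacnb1, 0.11 for Rab15 and 0.12 for Col4a2. Seen from Prox1, C1ql2 ranked 69 among 11119 genes, Bcl11b 812, Dsp 1371 and Calb1 7984. By this measure, which mixes size and order, the dentate markers did not all lie close together. Seen from Dsp, Prox1 ranked 10459 and C1ql2 7688. Seen from C1ql2, the CA marker Neurod6 ranked 2097 and Prox1 2542. Seen from Neurod6, Wfs1 ranked 2447, Calb1 3444, Rgs14 4993 and Pcp4 10053.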

How the data were processed

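Total RNA was depleted of ribosomal RNA and sequenced for 150 cycles from stranded libraries, per the labels' protocols. CASAVA 1.8 and HISAT2 are named in the submitters' processing notes, with the human build hg19, although gene IDs are those of rat in Ensembl. Not given in the sources used here are the rat build, the quantifier and the use of strand. The FPKM values were made by the authors, per the file headers. The estimated count columns were deposited by the authors after a scaling that made their totals nearly equal. Per library, 99.3% to 99.6% of nonzero values equalled whole multiples of 1 step to within 0.05 reads, so values were divided by the step and rounded to whole reads.

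The main test was edgeR 4.0.16 in R 4.3.3 (TMM, its own expression filter, quasi-likelihood fit on group alone, 2-sided, Benjamini-Hochberg adjustment). Its standard error is the absolute log2 fold change divided by the square root of F. DESeq2 1.42.0, limma 3.58.1 on log2(FPKM + 1) and other settings were alternatives, and the fits were checked on simulated counts. Residuals around each group's mean had correlations across genes of 0.38, 0.34 and 0.64 between libraries of the same number. Between others they ranged from −0.47 to 0.14. All 3 same-numbered values exceeded the limit of 0.1, but so did the 0.14 between Control replicate 1 and SPS replicate 2. The limit alone thus does not single out the same-numbered pairs. Pairing by number was adopted from the data, since the labels do not say what a number shares. The 10 markers and all gene lists were chosen with earlier results of these data known. Named genes were the markers, at most 4 genes with the highest mean CPM in each list, and the 5 genes most like Prox1 and Neurod6. Col1a2, Ly6c1, Man1a, Neurod2, Pecam1, Pou3f1, Slc1a2 and Socs2 were not matched and are not analysed here. Some listed genes are not reported here.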

Additional observations from a re-analysis of the deposited data

How the results depend on the processing

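By adjusted p, 0 markers were called in any of the 16 other settings tried, and 0 genes in all, also with each replicate left out in turn (0 to 0 genes). Only the replicate block without both libraries numbered 2, a setting chosen after seeing the data, gave 1 gene, Gdf1, which is no field marker. Wfs1 (−0.87 to −0.38) and Neurod6 (−0.90 to −0.04) kept a negative log2 fold change in all 16. Prox1 ranged from −0.998 to 2.33, C1ql2 from −0.47 to 0.48, Dsp from −0.30 to 1.23, Calb1 from −0.91 to 0.18, Rgs14 from −0.34 to 0.24, Pcp4 from −0.65 to 0.77 and Bcl11b from −0.34 to 0.62, so each changed direction under at least 1 setting. Calb1 did so only without both libraries numbered 2. Under RLE size factors or total reads only, no tested marker changed direction. With the replicate block the dentate minus CA difference is 0.68 by arithmetic and is no check of it, and leaving out 1 replicate moved it between −0.24 and 1.59. All 16 of its other settings, the block included, moved it by less than the pooled SD of 1.39. That SD is larger than the difference of 0.68 itself, so a move below it can still reverse the direction. The difference was negative without Control replicate 2, at −0.24, and positive in the other settings. Fibcd1 is limited by depth.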

Other observations

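Some transcripts were much higher in both libraries numbered 2 than in the other 4. Coch, one of the CA3 genes listed, was at 124 CPM in Control replicate 2 and 41.7 in SPS replicate 2, and between 3.08 and 7.01 in the other libraries. Ptgds, the prostaglandin D synthase of meninges and oligodendrocytes, reached 4719 and 2259 CPM in Control and SPS replicate 2, against 75.5 to 222 in the rest.

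Calretinin, the calcium buffer encoded by Calb2, had levels of 13.2, 2.13 and 5.72 CPM in Control replicates 1, 2 and 3 against 18.2, 53.2 and 15.3 CPM in SPS. Every SPS library lay above every Control library, as in 2.94% of tested genes in either direction, at 2.02 ± 0.80 on the log2 scale (SE, unadjusted p = 0.0368, adjusted p = 1.00 in edgeR). The value rests on the libraries numbered 2: without both it was 0.79 ± 0.59 (unadjusted p = 0.241 in edgeR), a setting chosen after seeing the data. Calb2 was listed for immature granule cells, mossy cells and thalamus alike. Gdf1, a growth factor singled out after its values were seen, had 204, 792 and 132 reads in Control and 0, 205 and 0 reads in SPS. These reads are not scaled for depth, which was 11838770 in Control replicate 1, 4786503 in Control replicate 3 and 4081184 in SPS replicate 2. SPS replicate 2 exceeded Control replicate 3 despite its lower depth, so the groups overlapped.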
